A study of Mus musculus with 3 samples.

Results

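Cajal-like cells were chosen cell by cell in single-cell libraries of mouse small intestine. A cell was a member when it held at least 2 molecules (UMIs, unique molecular identifiers) of Kit, at least 1 of Etv1 and Ano1 together, at most 2 of Epcam, under 5 of the neuronal gene Stmn2 and 0 of the myeloid gene Tyrobp. The rule found 612 of 28436 cells: 293 of 8447 in the library of embryonic day E15.5, 292 of 11598 in that of E17.5 and 27 of 8391 in that of postnatal day 7 (P7). The members were thus chosen by their levels of 6 genes, and the values of those genes in them are a description.

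All 3 libraries came from wild-type, untreated mice, 1 library a stage. Epithelium and mesenchyme of the small intestine were dissociated and pooled again, and viable cells were sorted that carried Epcam on the surface or lacked Epcam, CD31 and CD45, before Chromium 3′ v2 libraries were made. How many animals went into a library, and their sex and strain, are not given in the sources used here. With 1 library a stage there is no replicate, so no test between stages was made and no p-value exists. Every interval below is at 95% and covers counting error only, and differences between animals, dissections or sorts are not in it.

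Interstitial cells of Cajal are the pacemakers of gut muscle. They depend on KIT, the receptor tyrosine kinase for stem cell factor, and on ETV1, an ETS transcription factor that KIT signalling stabilises. ANO1, a calcium-activated chloride channel, carries their pacemaker current when calcium is released from internal stores, and connexins such as GJA1 can pass the current on to neighbouring cells. In the embryo they share a mesenchymal precursor in the outer gut wall with the longitudinal smooth muscle.

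In the order E15.5, E17.5 and P7, which series of 3 values below keep unless another order is named, the members held 2046084, 1522603 and 101700 UMIs. Their median cell held 5492, 4492.5 and 3575 UMIs, and the median cell of each whole library 8503, 6262.5 and 14014. Levels are in CPM, counts per 1e+06 UMIs summed over the members of a library, and 3 UMIs, the least taken as a level, came to 1.47, 1.97 and 29.5 CPM. The P7 values therefore rest on few molecules. Mitochondrial RNA made up 5.13%, 6.64% and 8.61% of member UMIs and haemoglobin RNA 1.59%, 2.50% and 0.00492%. In 11 members at E15.5 and 18 at E17.5 there were 10 or more UMIs of erythroid genes. The 3 deposited barcode lists were identical, with 8447 names each, so barcodes shared between libraries were not counted. Scrublet, a doublet caller, marked 15, 6 and 0 members.

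Members made up 3.47%, 2.52% and 0.322% of all cells, with exact Clopper-Pearson intervals of 3.09 to 3.88%, 2.24 to 2.82% and 0.212 to 0.468%. The sort set how many epithelial cells each library held. Among cells with at most 2 Epcam UMIs the shares were 4.18% (3.72 to 4.67), 2.94% (2.62 to 3.30) and 1.33% (0.879 to 1.93). At P7 another 251 cells with 2 or more Kit UMIs carried more Epcam than the rule allows, against 84 at E15.5 and 130 at E17.5. The cut on Kit sat inside the distribution before birth: 124 and 93 members held 2 Kit UMIs, and 252 and 130 further cells met every other condition with 1. At P7 only 4 members held 2 Kit UMIs, 11 cells lay just outside and 13 of 27 members held 10 or more.

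Prkcq, the kinase PKC theta, is a marker of Cajal cells that the rule did not use. The members were chosen with earlier results of these data known, so its values describe them and are no independent check. Prkcq stood at 41.1 CPM at E15.5, 91.3 CPM at E17.5 and 560 CPM at P7 in the members. It was under 2 CPM in each library in the 3 groups of cells most like them. These groups, used throughout, were muscle cells with at least 3 Actg2 and 2 Des UMIs (889, 1338 and 295 cells), mesenchyme with at least 3 Dlk1 and 2 Lsp1 UMIs (1973, 1622 and 27 cells), and fibroblasts with at least 3 Dcn and 5 Col3a1 UMIs (429, 1631 and 717 cells), each with 0 Kit UMIs. Of the members, 21.8% had a Prkcq UMI at E15.5, 34.2% at E17.5 and 77.8% at P7. In the fibroblasts it was 0.699%, 0.0613% and 0.139%, at median depths of 7589, 5006 and 4472 UMIs. In the Dlk1 Lsp1 mesenchyme it was 1.57%, 1.05% and 0%, at median depths of 8219, 6203.5 and 5768 UMIs. In muscle cells it was 0.562%, 0.224% and 0%. With each cell thinned to 3000 UMIs, with 2, 40 and 7 shallower members left out, the shares of members were 13.1%, 22.6% and 80.0%. The cells just outside the Kit cut had Prkcq in 13.1%, 19.2% and 0% of cells, against 21.8%, 31.2% and 25.0% of the members with 2 Kit UMIs.

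Markers of the other cell types that carry Kit or could pass the sort were summed in the members. Of 11 mast cell markers, 7, 9 and 11 were at 0 UMIs, the protease Cpa3 in each library, and the sum was 3.91, 28.9 and 0 CPM. At E17.5, 27 of the 44 UMIs came from 1 cell. Melanocyte markers summed to 6.84, 8.54 and 29.5 CPM, endothelial to 30.8, 30.9 and 39.3, immune to 46.4, 93.3 and 68.8, neuronal to 98.2, 65.0 and 108, glial to 143, 92.6 and 108, and mesothelial to 12.7, 7.22 and 9.83. Pericyte markers came to 483, 583 and 541 CPM and fibroblast markers to 2803, 2915 and 1681, the latter against 9475, 16033 and 43610 CPM in the fibroblasts. Epithelial markers summed to 124 and 112 CPM before birth and 1662 at P7, where epithelial cells held 44663, muscle cells 976 and fibroblasts 1179. Markers of PDGFRA-positive cells of the muscle layer, a list that holds Gja1, came to 110, 140 and 983 CPM, and erythroid markers to 15913, 25030 and 49.2 CPM. Muscle cells held 5122, 12474 and 22.8 CPM of the erythroid markers and fibroblasts 8576, 16111 and 481 CPM. Goblet and Paneth markers came to 19.1, 44.7 and 187 CPM. An enteroendocrine list, drawn up after the values were seen, summed to 834, 550 and 924 CPM, and at E15.5 a single cell held 776 of its 1706 UMIs. That list came to 285, 421 and 449 CPM in muscle cells and 321, 1652 and 1272 CPM in epithelial cells. The part of these RNAs in the results below was not tested.

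Each of the 4 marker genes was highest at P7 and lowest at E15.5. Kit (GRCm38, chr5:75574916-75656722) stood at 459, 742 and 2242 CPM, with Poisson intervals of 431 to 490, 700 to 787 and 1960 to 2553 CPM. Etv1 (chr12:38779380-38870484) stood at 456, 705 and 1937 CPM. Ano1 (chr7:144588549-144751974) stood at 42.0, 122 and 639 CPM, with intervals of 33.6 to 51.9, 105 to 141 and 493 to 815 CPM, and Prkcq (chr2:11172108-11301222) had intervals of 32.7 to 50.8, 76.7 to 108 and 424 to 726 CPM. For Prkcq, which the rule did not use, the intervals of successive stages did not overlap. Kit, Etv1 and Ano1 take part in the choice of members. Kit was not measured without its cut, and 2 UMIs are a higher CPM in a shallower cell. The median member was shallowest at P7, and the part of the cut in the Kit levels was not tested. Etv1 and Ano1 were each also measured in cells chosen without the gene itself. Ano1 in cells chosen by Kit and Etv1 stood at 39.4, 120 and 639 CPM, a log2 ratio of 1.61 (1.22 to 2.01) for E17.5 over E15.5 and 2.41 (1.98 to 2.83) for P7 over E17.5. Etv1 in cells chosen by Kit and Ano1 stood at 425, 721 and 1937 CPM, and its steps on the log2 scale were 0.76 (interval 0.52 to 1.00) and 1.43 (interval 1.18 to 1.67).

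**Figure D1:**
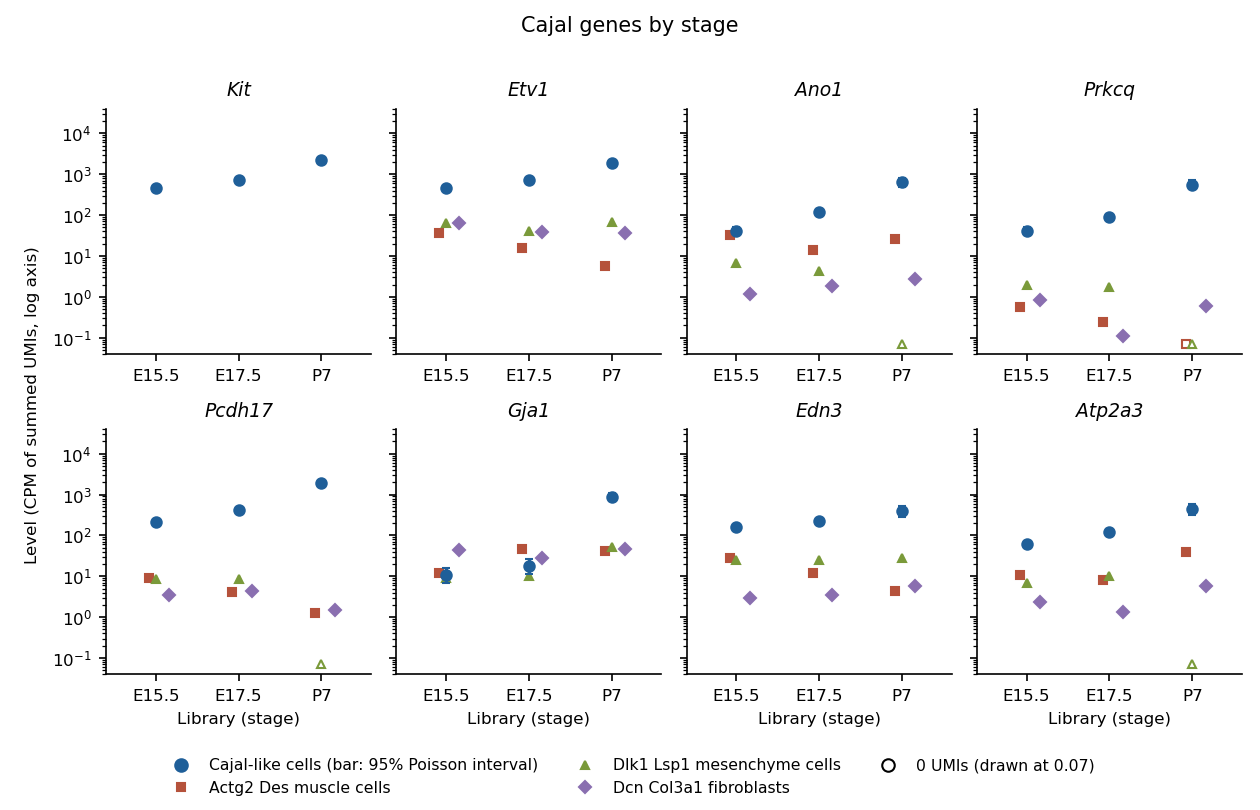
Level of 8 genes of Cajal cells (CPM of summed UMIs, log axis) in each library, in Cajal-like cells with 95% Poisson intervals and in the 3 like groups without intervals; open symbols stand for 0 UMIs, and Kit is not drawn for the like groups, which were chosen without it. At E15.5 Ano1 in Cajal-like cells (42.0 CPM) lies next to the muscle cells (31.9 CPM), whereas Prkcq and Pcdh17 already stand apart, and Gja1 leaves the range of the other groups at P7 (875 CPM).

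Ano1 RNA was also in muscle cells at E15.5. It stood at 31.9 CPM in muscle cells, and 24.0% of muscle cells (21.2 to 26.9) had a UMI of it against 22.9% of members (18.2 to 28.1), at median depths of 8513 and 5492 UMIs. The muscle level was then 13.8 CPM at E17.5 and 26.5 CPM at P7, so the log2 ratio of members over muscle was 0.40 (0.03 to 0.75), 3.15 (2.84 to 3.46) and 4.59 (4.01 to 5.18). Fibroblasts held 1.15 to 2.68 CPM. The share of members with an Ano1 UMI went from 67 of 293 through 124 of 292 to 27 of 27. After thinning to 3000 UMIs it was 13.1%, 32.5% and 90.0%.

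Between E15.5 and E17.5, 6121 genes were measured in the members, meaning a mean of at least 20 CPM over the libraries compared and a ratio that could be given. Of these, 168 (2.74%) were higher at E17.5 by 2-fold or more with an interval clear of 0, and 86 (1.40%) were lower. From E17.5 to P7, 896 of 6412 genes (14.0%) were higher and 281 (4.38%) lower by the same rule. The median gene shifted by -0.05 and 0.37 on the log2 scale. With the P7 step centred on the median gene, 494 genes were higher and 531 lower, so 48.2% in place of 76.1% of the genes past 2-fold lay on the higher side. In muscle cells 2.24% and 2.33% of genes were higher and lower at E17.5, and 12.1% and 3.11% at P7. In fibroblasts the shares were 3.41% and 1.56%, then 7.09% and 2.35%. The counts for gene lists are to be read against these shares. At P7 the filter of 20 CPM is about 2 UMIs, and genes under 3 UMIs are set at that floor in medians. Where the floor would turn the direction of a step, no ratio was given and the gene was left out of counts, shares and medians. In the P7 step this left out genes under 3 UMIs at P7 whose E17.5 level was under 29.5 CPM. Such genes were lower at P7 before the floor, so the counts and medians of that step lack part of the lower side.

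Of 24 further genes known from Cajal cells, 16 were measured in the first step, 3 of them higher and 0 lower (median log2 ratio 0.25). Of all genes, 2.74% were higher in that step. In the second step 20 were measured, 6 higher and 0 lower (median 0.63), where 14.0% of all genes were higher. The same list rose in muscle cells in that step, with 4 of 11 higher and 0 lower (median 0.75). In fibroblasts 2 of 11 were higher and 1 lower (median 0.25). Of all genes, 12.1% were higher in muscle cells and 7.09% in fibroblasts. Gja1, connexin 43, stood at 10.8, 17.7 and 875 CPM, from 89 UMIs in 20 of 27 cells at P7. Its log2 ratio of P7 over E17.5 was 5.62 (4.99 to 6.30), while muscle cells held 47.3 and 42.6 CPM. Before birth the members held no more Gja1 than muscle cells or fibroblasts did. Pde3a, a phosphodiesterase of cyclic nucleotides, stood at 140, 298 and 1219 CPM and was past 2-fold in both steps. Adgrd1, an adhesion receptor, stood at 3.42, 13.8 and 216 CPM, with at most 1.85 CPM in muscle cells. Slc12a2, the sodium, potassium and chloride transporter NKCC1, stood at 147, 211 and 669 CPM. Tacr1, the substance P receptor, had 2, 0 and 6 UMIs in the members, the last spread over 4 cells. Edn3 (160, 227 and 393 CPM), which encodes a peptide that keeps enteric neural progenitors undifferentiated, Elovl6, a fatty acid elongase (174, 289 and 462 CPM), and Thbs4, a matrix glycoprotein (135, 186 and 354 CPM), were higher at each later stage by less than 2-fold. In muscle cells these 3 were lower at each later stage, Edn3 from 27.5 through 11.9 to 4.32 CPM.

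Genes of calcium handling passed 2-fold mainly in the P7 step. Of the listed calcium store and pacemaker genes, 1 of 22 was higher at E17.5, Ano1 itself. At P7 8 of 23 were higher and 0 lower (median 0.84), where 14.0% of all genes were higher. Ano1, which takes part in the choice of members, was among the 8 and is in that median. Atp2a3, the endoplasmic reticulum calcium pump SERCA3, stood at 62.6, 122 and 433 CPM. Atp2a2, the more widely made pump SERCA2, stood at 195, 386 and 393 CPM, nearly level from E17.5. Kcnk3, the potassium channel TASK1, stood at 144, 145 and 541 CPM against 65.4 CPM in P7 muscle. Slc8a1, the sodium and calcium exchanger, stood at 28.8, 25.0 and 108 CPM, the last from 11 UMIs. Muscle cells had 3 of 21 genes of this list higher at P7, where 12.1% of all genes were. In the members Atp2b1, the plasma membrane calcium pump, stood at 470, 702 and 964 CPM without passing 2-fold.

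Of 35 listed receptor genes for transmitters and peptides, 9 were measured in the first step and 10 in the second. At E17.5 0 of the 9 passed 2-fold, and at P7 2 of the 10 were higher, where 14.0% of all genes were. These were Tacr1 and Adcyap1r1, the PACAP receptor (11.2, 25.6 and 138 CPM). The nitric oxide receptor subunits Gucy1a1 (82.6, 91.3 and 138 CPM) and Gucy1b1 (149, 154 and 108 CPM), and their kinase Prkg1 (92.9, 118 and 167 CPM), did not pass 2-fold in either step. The muscarinic receptor Chrm2 stood at 73.3, 36.8 and 29.5 CPM in the members and at 192, 151 and 130 CPM in muscle cells.

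Part of the response genes of KIT and ERK signalling stood above muscle in each library. Of those measured, 11 of 19 were at least 2-fold above muscle cells at E15.5, 9 of 20 at E17.5 and 9 of 20 at P7. Of all genes, 5.25%, 13.1% and 17.9% were. On the other side, 3, 1 and 3 genes of the list were at least 2-fold below muscle cells, where 4.42%, 6.08% and 6.96% of all genes were. Spry1, a feedback inhibitor of receptor tyrosine kinases, stood at 143, 198 and 403 CPM in the members and 23.5, 27.9 and 43.2 CPM in muscle cells. Spry4 stood at 54.7, 107 and 138 CPM against 10.2, 20.95 and 39.5 CPM in muscle cells. Etv5, a relative of Etv1, reached 39.3 CPM at P7 from 4 UMIs. Kitl, the KIT ligand, was lower in the members than in muscle cells before birth, 50.8 and 84.1 CPM against 133 and 160. By stage, 3 of 20 genes of the list were higher at E17.5, Dusp5, Spry2 and Ier3. At P7 2 of 22 were higher, Spry1 and Cbl, and 3 lower, Egr1, Ier3 and Stat3. Of all genes in the members, 2.74% were higher at E17.5, and 14.0% were higher and 4.38% lower at P7.

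Genes set above each like group were sought in the 3 libraries separately. Of 4769 genes with at least 20 CPM in the members of each library, 39 (0.818%) were at least 2-fold above muscle cells, Dlk1 Lsp1 mesenchyme and fibroblasts in all 3. Pcdh17, a protocadherin, led them: it stood at 209, 423 and 1878 CPM in the members and at 9.14, 8.67 and 3.44 CPM in the like groups at E15.5, so its smallest ratio was 22.9-fold. It was found in 57.3%, 76.0% and 85.2% of members. Prkcq came next with a smallest ratio of 21.1-fold, then Atp2a3 with 5.82-fold, and Edn3, Ap1s2 and Itpk1 followed. Osr1, a zinc finger factor of lateral mesoderm, stood at 163, 158 and 688 CPM against at most 95.6 CPM elsewhere. Dkk2, a secreted WNT regulator, stood at 171, 225 and 501 CPM. Ppargc1a, a coactivator of mitochondrial genes, stood at 60.6, 138 and 344 CPM while muscle cells went from 18.9 to 7.40. Car2, carbonic anhydrase 2, stood at 28.8, 91.9 and 570 CPM against 11.1, 10.8 and 9.26 CPM in muscle cells.

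**Figure D2:**
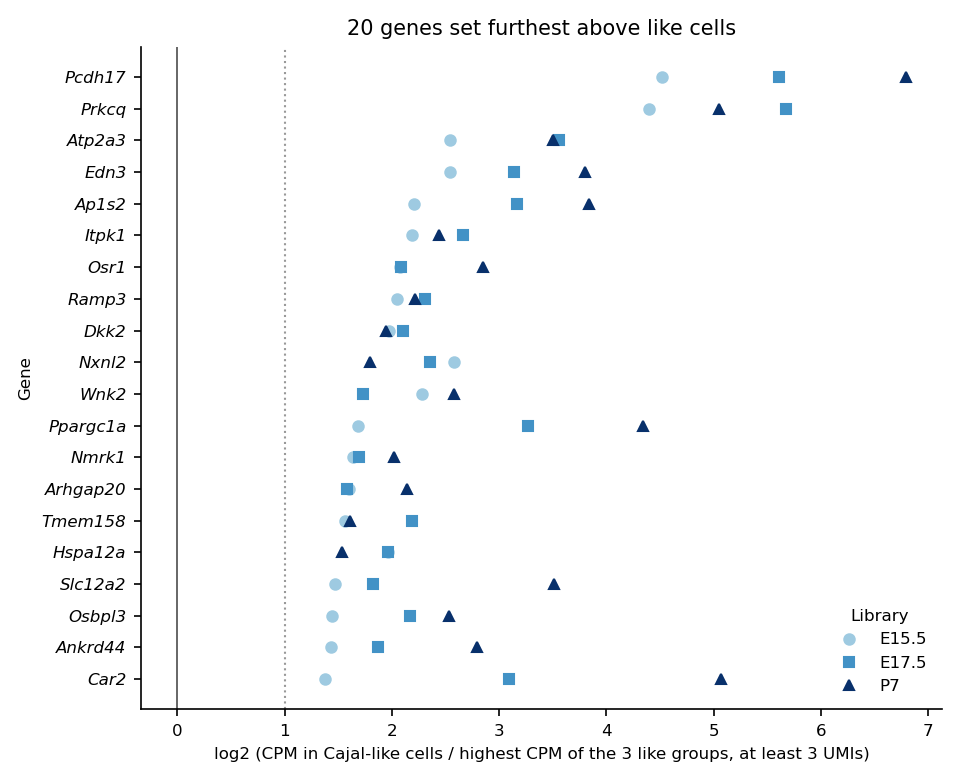
For the 20 genes outside the rule with the largest smallest ratio, the log2 ratio of the level in Cajal-like cells over the highest of the 3 like groups (x axis; groups under 3 UMIs set at 3 UMIs), 1 symbol a library; the dotted line marks 2-fold. All points lie to the right of that line by construction, and Pcdh17 and Prkcq lie furthest out at E15.5.

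Few genes were set below all like groups. Of 3992 genes with enough UMIs in the like groups, 8 (0.200%) were at least 2-fold lower in the members in each library: Rhob, S100a10, Crip1, Anxa2, Cavin3, Abi3bp, Gadd45g and Filip1l. Cavin3, a protein of caveolae, stood at 46.9, 59.1 and 59.0 CPM in the members and 212, 273 and 844 CPM in muscle cells. Rhob, a small GTPase, stood at 18.1, 38.1 and 49.2 CPM against 105, 174 and 225. Anxa2 and S100a10, whose proteins form a complex, were both on this list.

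Contractile genes were lower in the members than in muscle cells in every library and were lower again at P7. Of 26 listed genes, 25 of 25 measured were at least 2-fold below muscle cells at E15.5, 26 of 26 at E17.5 and 23 of 25 at P7 (median log2 ratio -2.36, -3.53 and -4.31), where 4.42%, 6.08% and 6.96% of all genes were. By stage, 5 of 21 were lower at E17.5 with 0 higher (median -0.37), and 12 of 19 at P7 with 0 higher (median -1.55). Of all genes in the members, 1.40% and 4.38% were lower. In muscle cells the medians of the list were 0.59 and -0.30. Acta2, smooth muscle actin, stood at 2338, 976 and 78.7 CPM in the members, the last from 8 UMIs in 2 cells, and at 13743, 17259 and 19244 CPM in muscle cells. Myh11, smooth muscle myosin, stood at 679 and 296 CPM and had 0 UMIs at P7, at least 10.02-fold lower than at E17.5 by the floor of 3 UMIs (the interval of the log2 ratio ends at -3.02). Myocd, the coactivator of the muscle programme, stood at 83.6 and 16.4 CPM and had 0 UMIs at P7, where the floor allows up to 29.5 CPM. Actg2, enteric actin, was higher at E17.5 than at E15.5 in the summed UMIs, 946 against 670 CPM, and stood at 59.0 CPM at P7. Fewer members held an Actg2 UMI at E17.5, 121 of 292 against 146 of 293 at E15.5. The top cells held 364 and 163 UMIs in that order, and the median cell 0 at both stages. Des, desmin, differed little (205, 221 and 147 CPM), and Cald1, caldesmon, stood at 1349, 1154 and 1583 CPM with 27 of 27 cells positive at P7.

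Contractile RNA was unevenly spread over the embryonic members. The 26 contractile genes took a median of 0.525% of a member's UMIs at E15.5, 0.565% at E17.5 and 0.325% at P7, close to the fibroblasts (0.412%, 0.431% and 0.464%) and far under muscle cells (7.36%, 12.2% and 7.80%). The highest members reached 9.15%, 12.5% and 0.784%. At or above 2%, a line drawn after the values were seen, lay 55 of 293 members at E15.5 (18.8%, interval 14.5 to 23.7), 11 of 292 at E17.5 (3.77%, 1.90 to 6.64) and 0 of 27 at P7. A count of 0 allows a share of up to 11.1% by the floor of 3 cells, and the exact interval ends at 12.8%. Those cells held 66.6% and 50.05% of the members' contractile UMIs, and in the others the share was 0.631%, 0.566% and 0.370%. The median cell above the line held 9613 and 8760 UMIs and the median cell below it 5148.5 and 4417, and Scrublet marked 0 of the 55 and 3 of the 11. Without the cells that Scrublet marked the first step's median was -0.63 in place of -0.37. Whether such cells were single cells with both programmes was not tested.

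**Figure D3:**
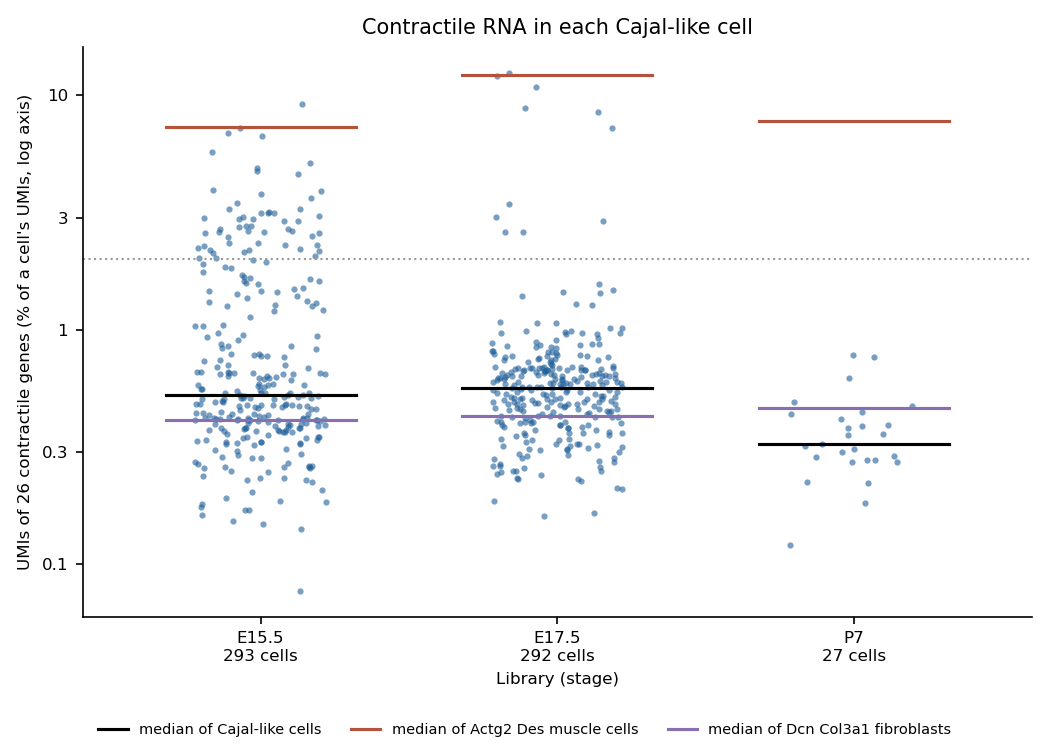
Share of each Cajal-like cell's UMIs taken by 26 contractile genes (y axis, percent, log axis) by library, 1 point a cell with sideways jitter; lines give the medians of Cajal-like cells, muscle cells and fibroblasts, and the dotted line marks 2%. The E15.5 cells lie between 0.0769% and 9.15%, where the muscle median is 7.36%, at E17.5 only 11 cells lie above the line, and at P7 the 27 cells lie between 0.121% and 0.784%.

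Among the E15.5 members, those with enteric actin RNA held less Prkcq and Pcdh17 per thinned cell. Etv1 takes part in the choice of members, so its values here are a description. The means are given without intervals. After thinning to 3000 UMIs, 99 members kept an Actg2 UMI and 192 did not. The Actg2-positive cells had a mean of 0.0606 Prkcq UMIs and 1.18 Etv1 UMIs per thinned cell, the others 0.229 and 1.84. Pcdh17 had a mean of 0.566 against 0.823 UMIs and Myh11 3.24 against 0.474. At E17.5, in 77 cells with an Actg2 UMI and 175 without, Prkcq had 0.26 against 0.303 UMIs per thinned cell and Etv1 2.18 against 2.47. In E17.5 members with 2, 3 to 4, 5 to 9 and 10 or more Kit UMIs, Prkcq stood at 77.9, 84.4, 113 and 132 CPM. Their Poisson intervals, 54.5 to 108, 63.6 to 110, 78.7 to 157 and 70.2 to 225 CPM, overlapped, and the last class held 11 cells. Cells of 1 library are not replicates, and these values describe the libraries.

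Dlk1 and Lsp1, which mark the embryonic outer mesenchyme, were high in the embryonic members and nearly gone at P7. Dlk1, an imprinted NOTCH-family ligand (chr12:109452823-109463336), stood at 703, 399 and 0 CPM, with a UMI in 273 of 293, 205 of 292 and 0 of 27 cells, so with the floor of 3 UMIs it was at least 13.5-fold lower at P7 than at E17.5. The counting interval of that log2 ratio ends at -3.46. Lsp1, an actin-binding protein first known from leukocytes (chr7:142460809-142494867), stood at 1002, 802 and 49.2 CPM, with a UMI in 287, 265 and 4 cells. Muscle cells held Dlk1 at 334, 163 and 34.6 CPM and Lsp1 at 548, 361 and 58.6 CPM. At E17.5 the members without a Dlk1 UMI after thinning (102 cells) had a mean of 0.529 Ano1, 1.63 Pcdh17 and 2.77 Etv1 UMIs per thinned cell. Those with one (150 cells) had 0.36, 1.18 and 2.11, and 40 shallower cells were left out. Ano1 and Etv1 take part in the choice of members, so only Pcdh17 was free of it here.

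Other imprinted growth genes were lower at P7 as well. Of 16 measured, 0 were higher and 2 lower at E17.5, Peg3 and Nnat, and 0 higher and 9 lower at P7 (median -1.26). In muscle cells 8 of 17 were lower at P7 (median -0.99). Of all genes in the members, 1.40% were lower at E17.5 and 4.38% at P7, and in muscle cells 3.11% at P7. Igf2, the growth factor, stood at 615, 590 and 138 CPM, H19 at 2006, 1693 and 551 CPM, and Cdkn1c, the inhibitor of the cell cycle p57, at 1846, 1357 and 246 CPM. Grb10, an adaptor that restrains growth factor receptors, stood at 615 and 332 CPM and had 1 UMI at P7 (interval of the log2 ratio -10.39 to -2.59). Meg3, a noncoding RNA of the Dlk1 locus, stood at 2694, 2617 and 1121 CPM. Gnas, which is also imprinted in part, stood at 2325, 2311 and 2242 CPM and did not differ beyond its intervals. The Dlk1 Lsp1 mesenchyme cells that remained at P7, 27 cells chosen by those genes, held Cdkn1c at 1210 CPM and Meg3 at 2998 CPM.

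**Figure D4:**
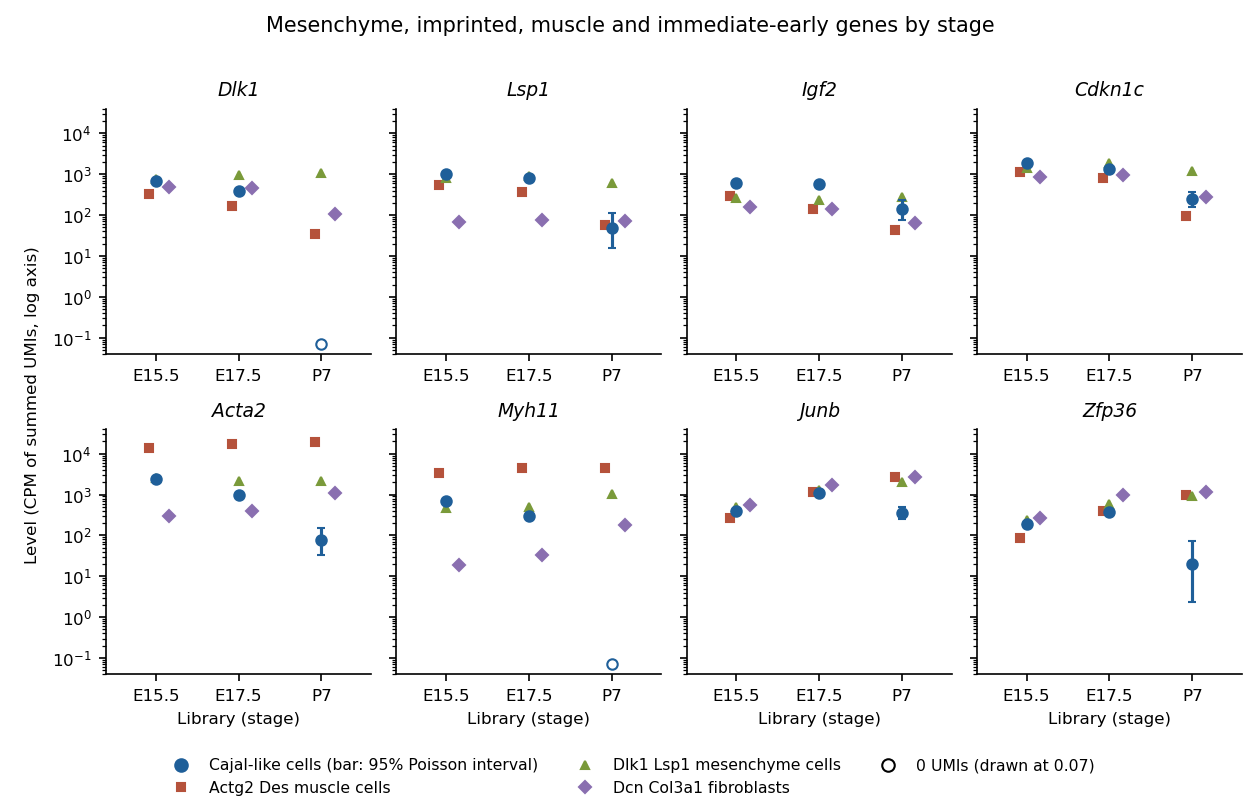
Level of 8 genes (CPM of summed UMIs, log axis) in each library in Cajal-like cells with 95% Poisson intervals and in the 3 like groups; open symbols stand for 0 UMIs. Dlk1, Lsp1, Igf2, Cdkn1c, Acta2 and Myh11 are lowest at P7 in Cajal-like cells, while Junb and Zfp36 are highest at E17.5 in them and highest at P7 in muscle cells (2635 and 1003 CPM).

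Of 29 cell cycle genes measured in the members, 0 passed 2-fold at E17.5 (median -0.23), whereas in muscle cells 19 of 28 were lower (median -1.09) against 2.33% of all genes there. At P7, 13 of 28 were higher in the members (median 0.95), where 14.0% of all genes were. Mki67 stood at 233, 238 and 580 CPM, with a UMI in 70 of 293, 57 of 292 and 9 of 27 cells. Top2a, a topoisomerase of dividing cells, had a UMI in 88 of 293 (30.0%), 60 of 292 (20.5%) and 11 of 27 (40.7%) cells. Thinned to 3000 UMIs, the shares of cells with Mki67 were 19.2%, 18.3% and 40.0%, the last over 20 cells. Muscle cells had it in 29.4%, 17.0% and 13.2% of cells. Against muscle, 0 of 29 genes were at least 2-fold higher in the members at E15.5, 17 of 28 at E17.5 and 20 of 26 at P7. Of all genes, 5.25%, 13.1% and 17.9% were. The 13 included Cdk1, Ccnb1, Plk1, Cenpe and Cenpf, which act in mitosis. The replication helicase genes Mcm2, Mcm3, Mcm5 and Mcm7 stood at 19.7, 49.2, 19.7 and 39.3 CPM, from 2 to 5 UMIs, against 44.7, 110, 43.3 and 60.4 CPM at E17.5. The E17.5 median turned to 0.61 when the rule was applied to thinned cells, so its sign depends on that choice. Members with an Mki67 UMI after thinning had a mean of 0.304 Pcdh17 UMIs per thinned cell at E15.5 and 0.848 at E17.5, those without 0.838 and 1.48.

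Among mesenchymal transcription factors, 0 of 21 were higher and 3 lower at E17.5 (Meis1, Bnc2 and Nr2f2), where 1.40% of all genes were lower. At P7 3 of 19 were higher (Hand1, Osr1 and Mef2c) and 3 lower (Klf4, Id1 and Id3). Of all genes in the members, 14.0% were higher and 4.38% lower at P7, so the higher share was near that of all genes. In muscle cells 9 of 27 of these factors were higher and 2 lower at P7, where 12.1% and 3.11% of all genes were. Hand1, a basic helix-loop-helix factor, stood at 67.4, 90.0 and 344 CPM in the members and at 137, 160 and 40.1 CPM in muscle cells, so the order of the groups turned between E17.5 and P7. Foxf1, a forkhead factor of gut mesenchyme, stood at 346, 497 and 619 CPM against 311, 226 and 133 CPM in muscle cells. Meis2 stood at 1026, 575 and 1131 CPM. Id1 and Id3, targets of BMP signalling, stood at 422, 338 and 138 CPM and at 410, 460 and 108 CPM.

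At P7 more matrix genes were lower than higher in the members, and 0 were lower in muscle cells or fibroblasts. In the members 2 of 29 were higher and 7 lower (median -0.49), where 14.0% and 4.38% of all genes were. In muscle cells 13 of 34 were higher and 0 lower, and in fibroblasts 16 of 37 higher and 0 lower. Of all genes, 12.1% were higher in muscle cells and 7.09% in fibroblasts. Col1a1 stood at 598, 523 and 147 CPM in the members and Sparc, a collagen-binding protein, at 888, 999 and 600 CPM, against 2303, 4440 and 9885 CPM in fibroblasts. Eln, elastin, stood at 84.1, 133 and 59.0 CPM, and at 4958 CPM in P7 muscle cells. Hspg2, perlecan, a basement membrane proteoglycan, was among the 2 that were higher (44.5, 38.7 and 128 CPM).

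Of the axon and neurotrophic ligands, Gdnf, the attractant of enteric neural cells, stood at 68.9, 109 and 29.5 CPM, and its relative Nrtn at 23.0, 44.7 and 118 CPM. Slit3 and Ntn1, guidance cues, stood at 54.2, 90.6 and 226 CPM and at 40.6, 54.5 and 138 CPM. In all, 0 of 11 were higher and 1 lower at E17.5, and 4 of 12 higher and 1 lower at P7. Of all genes in the members, 14.0% were higher and 4.38% lower at P7. Muscle cells had 6 of 14 of these ligands higher and 2 lower, where 12.1% and 3.11% of all genes were. Among neural adhesion genes 0 of 5 passed 2-fold at E17.5 and 1 of 5 at P7, Tenm4, a teneurin (74.8, 45.3 and 157 CPM).

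Immediate-early and heat shock genes, which dissociation can induce, differed by stage. At E17.5, 9 of 17 were higher and 0 lower in the members (median 1.00), as were 10 of 17 in muscle cells and 12 of 17 in fibroblasts. Of all genes, 2.74% were higher in the members, 2.24% in muscle cells and 3.41% in fibroblasts. At P7, 14 of 17 were lower and 0 higher in the members (median -2.05, or -0.80 without the Etv1 and Ano1 condition, which adds 26 cells at E17.5 and 6 at P7), whereas 7 were higher and 1 lower in muscle cells (median 0.88) and 2 higher and 2 lower in fibroblasts. Of all genes, 4.38% were lower in the members at P7, and 12.1% were higher in muscle cells and 7.09% in fibroblasts. Junb stood at 404, 1116 and 354 CPM in the members and at 260, 1173 and 2635 CPM in muscle cells. Fos stood at 1399, 2378 and 482 CPM against 1153, 2030 and 4885. Zfp36, a protein that degrades unstable mRNA, stood at 186 and 379 CPM and had 2 UMIs at P7 (log2 ratio -3.68 at the floor, interval -7.32 to -2.41). Without that condition its log2 ratio was -0.80, and that of Socs3 -2.56 in place of -4.19. Socs3, an inhibitor of cytokine signalling, stood at 270, 540 and 29.5 CPM. Against muscle, 5 of 17 were at least 2-fold higher and 3 lower at E15.5, and 15 lower with 0 higher at P7. Of all genes, 5.25% were higher and 4.42% lower at E15.5, and 6.96% were lower at P7. The P7 members also held fewer UMIs per cell than the P7 muscle cells, 3575 against 5037, and the part of depth or handling in these values was not tested.

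**Figure D5:**
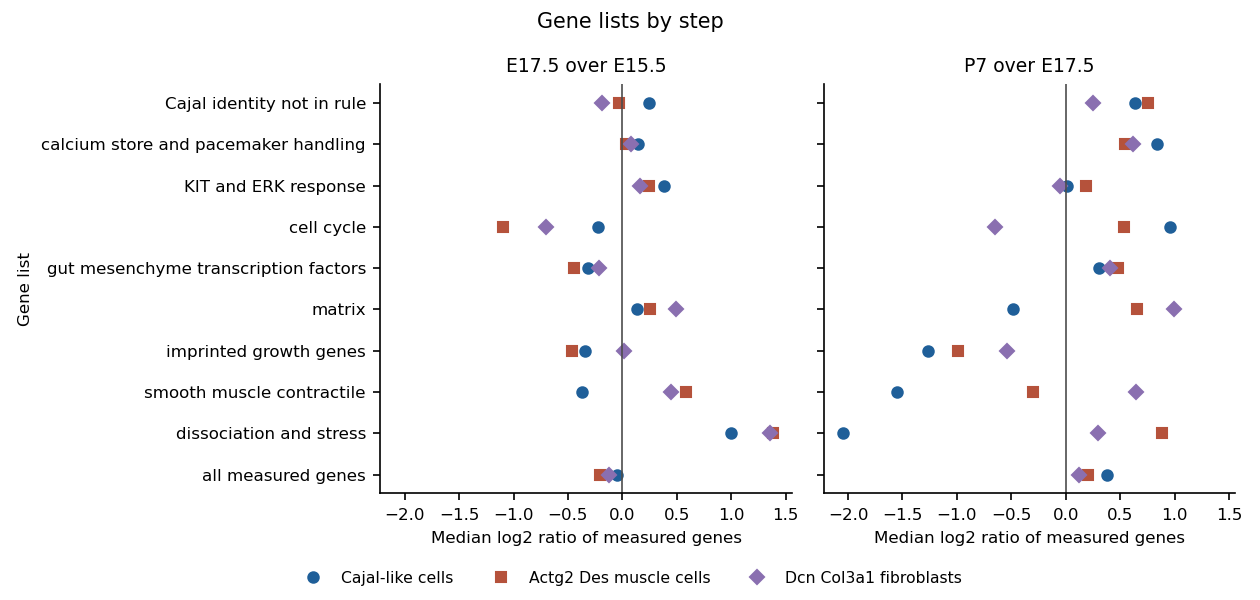
Median log2 ratio of the measured genes of 9 lists and of all measured genes (x axis) for E17.5 over E15.5 and P7 over E17.5, in Cajal-like cells, muscle cells and fibroblasts. In the second step matrix (-0.49) and the dissociation and stress list (-2.05, and -0.80 without the Etv1 and Ano1 condition) lie on opposite sides of 0 in Cajal-like cells and in the other 2 groups, and contractile genes (-1.55) lie lowest of the 3 groups.

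Beyond the lists, the genes with the largest ratios were named by rule, leaving out those that another group held at over 5 times the members' level. At E17.5 they were led by Gdf15, a stress-induced cytokine (3.91 and 72.2 CPM), and Cwc22, a splicing factor (24.9 and 397 CPM). Gdf15 was higher in muscle cells (1.03 and 5.74 CPM) and fibroblasts (5.17 and 30.1 CPM) as well. Cwc22 was higher in every other group too, in muscle cells (17.8 and 217 CPM), mesenchyme (26.6 and 247 CPM), fibroblasts (27.0 and 220 CPM) and epithelial cells (29.9 and 138 CPM). In the P7 members Cwc22 was back at 49.2 CPM. Lbhd2 (9.29 and 74.2 CPM), C2cd4b (10.3 and 68.3 CPM) and Nrsn2 (6.35 and 35.5 CPM) were higher in the members while muscle cells stayed at or under 10.2 CPM. Chchd10, a mitochondrial protein, stood at 119, 778 and 1593 CPM, with 109, 418 and 208 CPM in muscle cells. The lower side was led by AA465934 (58.6 and 0.657 CPM). It was lower in muscle cells (43.7 and 0.831 CPM) and epithelial cells (34.6 and 1.38 CPM) as well. Gt(ROSA)26Sor (43.0 and 13.1 CPM) was also lower in every other group, epithelial cells included (29.7 and 17.1 CPM). The cause of differences that span the groups was not tested. Hmga2, a chromatin protein of embryonic growth, stood at 116 and 14.4 CPM, and Alcam, an adhesion molecule, at 233 and 27.6 CPM. Both were lower in muscle cells too, Hmga2 at 169 and 49.7 CPM and Alcam at 219 and 62.9 CPM. Nnat, Sfrp2 and Myocd stood on the same side.

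At P7 the higher side held Pln and Pde4c besides Gja1 and Tacr1. Pln, the inhibitor of the calcium pump SERCA2, had 1 UMI at E17.5, then 98.3 CPM from 10 UMIs in 4 cells. Pln was higher in muscle cells as well (9.89 and 69.1 CPM). Pde4c, a phosphodiesterase, stood at 4.60 and 147 CPM. Irx3 and Irx5, neighbouring homeobox genes, each had 0 UMIs at E17.5 and 7 at P7, in 4 cells each, with at most 0.617 CPM in P7 muscle cells. Ctxn3 (4.60 and 206 CPM), Tmem100 (3.28 and 147 CPM) and Chl1 (3.94 and 118 CPM) were also among the larger ratios, with 12 to 21 UMIs at P7. Cldn15 reached 68.8 CPM from 7 UMIs, and epithelial cells held it at 63.0 CPM. The lower side included Dlk1, Lsp1, Grb10 and Rian and the stress-response genes Socs3, Zfp36, Ier2, Cebpd and Dnajb1.

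Slmap and Stk24, on which the series centres, encode a scaffold and the kinase MST3 of the STRIPAK complex. In the members Slmap stood at 61.6, 106 and 206 CPM, log2 ratios of 0.79 (0.44 to 1.14) and 0.96 (0.23 to 1.62), both under 2-fold. Muscle cells held 185, 277 and 213 CPM, above the members before birth and close to them at P7. Stk24 stood at 45.5, 49.9 and 49.2 CPM and did not differ by stage beyond its intervals.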

How the data were processed

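Cells of mouse small intestine at 3 stages, 1 library each, were measured by Chromium 3′ v2 single-cell RNA-seq. The deposited matrices hold whole-number UMI counts per gene and cell for 22100 genes, made by the authors with Cell Ranger 7.2.0 on mm10 (GRCm38), per the submitters' processing notes. No count test was made, since each stage is 1 library, and an exact sign-flip permutation test over 3 libraries cannot go below p = 0.25.

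Counts were summed over member cells and scaled to CPM. Ratios of sums have exact conditional binomial intervals, levels exact Poisson intervals and shares exact Clopper-Pearson intervals, at 95%, for counting error only. A gene was measured at a mean of 20 CPM and counted as higher or lower at 2-fold with an interval clear of 0. Sums under 3 UMIs were set at 3 UMIs in ratios, and a gene was left out where this would turn the direction of its ratio. Named genes were the 12 with the largest ratios a step and direction, with a UMI in at least 10% of cells of the higher library and at least 1/5 of the highest level in another group, the 20 set furthest above like cells, and listed genes. Members and lists were chosen with earlier results of these data known. Lists named 512 genes, 2 of them not in the files. Positions are from GENCODE M21. Doublets were kept. Scrublet (scanpy 1.11.5, expected share 6%) served as an alternative. Scripts used Python 3.11.15, numpy 2.4.6, scipy 1.17.1 and pandas 2.3.3 and were tested on simulated data. Alternatives covered the Kit cut, the Etv1 and Ano1 condition, thinned cells, doublets, scaling, the CPM filter and the fold. A gene that the rule names is not reported here.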

Additional observations from a re-analysis of the deposited data

Results flagged for a closer look

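For 3 named genes the step in Cajal-like cells and in Actg2 Des muscle cells lay on opposite sides of 0. With 1 library a stage these differences were not tested. Ano1 had a log2 ratio of E17.5 over E15.5 of 1.54 in Cajal-like cells (42.0 and 122 CPM) and -1.21 in muscle cells (31.9 and 13.8 CPM). Chchd10 had a log2 ratio of P7 over E17.5 of 1.03 in Cajal-like cells (778 and 1593 CPM) and -1.01 in muscle cells (418 and 208 CPM). Zfp36 had 2 UMIs in the P7 Cajal-like cells, and with these set at the floor of 3 UMIs its log2 ratio of P7 over E17.5 was -3.68 (interval from the counts -7.32 to -2.41), against 1.32 in muscle cells (400 and 1003 CPM). Without the Etv1 and Ano1 condition, which adds 26 cells at E17.5 and 6 at P7, its ratio in Cajal-like cells was -0.80.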

How the results depend on the processing

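No paired analysis was possible because each stage is 1 library, and for the same reason no replicate was left out. The P7 values rest on 27 cells and 101700 UMIs. Of the other settings tried for the main shares, counts and medians, 142 values stayed close and 32 moved, and of the settings chosen after seeing the data (a Kit cut of 5, an endocrine cut and a total without haemoglobin) 46 stayed close and 4 moved. The cause of each shift below was not tested.

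The share of members at E15.5 was 2.00% with a Kit cut of 3, 0.710% with Etv1 and Ano1 both detected, 4.10% without that condition, 1.64% with the rule on thinned cells and 0.627% with a Kit cut of 5. At E17.5 it was 1.72%, 1.00%, 1.48% and 0.604% for a Kit cut of 3, both genes, thinned cells and a Kit cut of 5. Genes higher at E17.5 numbered 268 with both genes detected, 254 on thinned cells, 80 at 50 CPM, 498 without a filter and 455 at 1.5-fold. Genes lower numbered 217, 172, 28, 387 and 446 in that order, and 199 with a Kit cut of 5. Genes higher at P7 numbered 1640 by the mean over cells of CPM, 494 scaled by the median gene and 520 at 50 CPM, and genes lower 607 and 531 by the first and the second of these.

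The contractile median for E17.5 over E15.5 was -0.21 with a Kit cut of 3 and -0.63 with both genes detected, without Scrublet doublets and on thinned cells. For P7 over E17.5 it was -1.09 without the Etv1 and Ano1 condition and -0.996 on thinned cells, and the stress median was -0.80 without that condition. The imprinted median for E17.5 over E15.5 was -0.16 without a filter, and the cell cycle median 0.61 on thinned cells. Genes above the 3 like groups numbered 60 on thinned cells and 61 with a Kit cut of 5. The sign turned for Tmem100 at E17.5 over E15.5 (0.13 with a Kit cut of 3) and for Mfap4 (-0.077 with a Kit cut of 5).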
